A study of Mus musculus with 2 samples.

Results

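Mast cells and basophils store histamine and proteases in granules, and the genes described here encode such proteases and an enzyme behind the histamine. They are the chymase family members Mcpt1, Mcpt2, Mcpt4, Mcpt8, Mcpt9 and Cma1, the carboxypeptidase Cpa3, the tryptases Tpsb2 and Tpsab1, and histidine decarboxylase, Hdc, the enzyme that makes histamine. They were taken as a fixed list of 10 genes of the 32291 in the expression table, and each was followed across the 11 annotated cell types of both libraries. The study compared colitis-associated colon tumors of mice that carry floxed Mir34a alleles without Cre (Mir34a F/F, the library labelled Mir34a_F/F) with tumors of mice that also carry LysM-Cre, which deletes Mir34a in the myeloid lineage (Mir34a ΔMye, the library labelled Mir34a_Mye_KO). Both genotypes were on a C57BL/6 background and were female, were 6 to 10 weeks old when treated, and received dextran sodium sulfate (DSS) in 3 cycles, at 2.5% and, in the third cycle, 2%. Azoxymethane (AOM, 10 mg per kg) was given 5 days before the first cycle and again before the second. Tumors were taken 110 days after the first AOM dose, and 6 to 8 tumors from 3 mice were pooled into 1 library per genotype. With 1 library for each genotype, no test between genotypes was possible, and no interval below covers more than counting error.

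In mice, mast cells of mucosal surfaces and mast cells of connective tissue differ in their granule proteases. Mucosal mast cells are known for the chymases encoded by Mcpt1 and Mcpt2. Connective tissue mast cells are known for Mcpt4, for Cma1 (also called Mcpt5) and for the tryptase Tpsb2 (Mcpt6), together with Cpa3. Mcpt8 is the protease by which mouse basophils are usually recognised. C57BL/6 mice carry a splice defect in Tpsab1 (Mcpt7) that removes the protein. The Tpsab1 allele of the mice here, which were backcrossed to C57BL/6, was not checked, and its level below is a level of transcript only.

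The chymase genes lie side by side. In the GENCODE annotation of GRCm38, Cma1 spans chr14:55941451-55944675 on the minus strand, Mcpt1 chr14:56017971-56020384 on the plus strand, Mcpt9 chr14:56026864-56030495 on the minus strand, Mcpt2 chr14:56042041-56044642 on the plus strand, Mcpt4 chr14:56059629-56062313 on the minus strand and Mcpt8 chr14:56082166-56085273 on the minus strand. Both tryptases lie on chromosome 17, Tpsab1 at chr17:25343245-25345562 on the minus strand and Tpsb2 at chr17:25366305-25369098 on the plus strand. Cpa3 lies at chr3:20215620-20242181 and Hdc at chr2:126593667-126619299, both on the minus strand. All 10 are protein coding. The coding sequences of Mcpt1 and Mcpt4 were 86.9% identical, those of Mcpt1 and Mcpt2 81.6%, and those of Mcpt1 and Mcpt8 61.1%, while Tpsb2 and Tpsab1 were 68.3% identical. Since counting was from the ends of transcripts, the last 500 bases were searched for stretches of 90 bases shared with other genes: 33.8% of the stretches of Mcpt9 and 2.68% of those of Mcpt4 also occurred in Cma2, 0.487% of those of Cma1 occurred in Gm48934, and the other 7 genes shared none. The level of Mcpt9 is therefore uncertain, because its reads could be split with Cma2.

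Promoters are shown for the 3 genes in which a motif of GATA factors, searched only as AGATAA or TGATAA, was found. They are shown because Gata2, a transcription factor of mast cells and basophils, was itself high in both cell types. In the libraries labelled Mir34a_F/F and Mir34a_Mye_KO it had a mean of 4.65 and 6.07 UMIs per 10000 in mast cells and of 8.82 and 5.52 in basophils, against 0.107 and 0.128 in T cells. Each line gives the 150 bases before the RefSeq start of the gene (build GRCm38.p6), read 5′ to 3′ on the strand of the gene, with the motif (AGATAA or TGATAA) in capitals. They lie at chr14:56017814-56017963 on the plus strand, chr14:56062311-56062460 on the minus strand and chr3:20242182-20242331 on the minus strand.
Mcpt1: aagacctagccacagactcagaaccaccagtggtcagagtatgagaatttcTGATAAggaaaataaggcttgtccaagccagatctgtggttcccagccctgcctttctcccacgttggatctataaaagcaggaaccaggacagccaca
Mcpt4: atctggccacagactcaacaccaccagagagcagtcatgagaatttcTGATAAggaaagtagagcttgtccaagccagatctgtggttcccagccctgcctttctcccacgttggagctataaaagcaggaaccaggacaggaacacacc
Cpa3: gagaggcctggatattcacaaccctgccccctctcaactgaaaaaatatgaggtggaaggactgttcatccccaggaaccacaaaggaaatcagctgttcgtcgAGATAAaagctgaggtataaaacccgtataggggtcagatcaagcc
The motif began 99 bases before the start of Mcpt1, 103 before that of Mcpt4 and 46 before that of Cpa3. Over the full window of 250 bases before to 50 after the start, the promoters of Mcpt1 and Mcpt4 were 82.3% identical, although one gene is of the mucosal type and the other of the connective tissue type, while Mcpt1 and Cma1 were 55.7% identical. RefSeq promoters were matched for 7 of the 10 genes (not Mcpt2, Tpsb2 or Tpsab1). Of the 7, 3 held AGATAA or TGATAA on either strand, compared with 18.6% of 32851 promoters of the same length. Other forms of the GATA motif were not searched, so the remaining promoters are not read as lacking a GATA site. An E-box (CACATG or CATGTG, which are each other's reverse complement) was in 0 of the 7 and in 14.2% of all promoters.

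The libraries held 20312 cells (Mir34a_F/F) and 18571 cells (Mir34a_Mye_KO), with 147109016 and 193133086 UMIs, the molecule counts recovered from the deposited values. Annotated mast cells numbered 732 (3.60% of the library) and 785 (4.23%), with a median of 2952 and 8456 UMIs per cell, so depth differed between the genotypes. Annotated basophils numbered 48 and 40. Of the 12 fixed mast cell identity genes, all had UMIs in mast cells, and 10 (Mir34a_F/F) and 11 (Mir34a_Mye_KO) were higher there than in every cell type other than basophils. Of the other fixed lists, 3 of the 4 genes of a mucosal position (both libraries) and 8 and 6 of 9 other mast cell and granule genes were highest in mast cells in the same sense. So were 7 and 6 of the 8 basophil genes in basophils. Of the basophil genes, 4 of 8 in both libraries were higher in mast cells than in every type other than basophils. None of the genes that mark the other cell types was highest in mast cells. Kit, the receptor for stem cell factor, had a UMI in 82.2% and 92.5% of mast cells, against 15.5% and 25.3% of T cells. The 8 basophil genes summed to 16.1 and 20.6 UMIs per 10000 in basophils, but the 5 neutrophil genes summed to 460 and 396 there, compared with 9.01 and 6.71 in mast cells. The annotated basophils thus went partly against their label. Among the 5, S100a8 had a mean of 183 and 161 in basophils but a median of 3.37 and 3.65, so its high levels lay in part of the cells. None of the 5 was higher in basophils than in every one of the 9 types other than mast cells and basophils. In basophils, 9 and 9 of the 12 mast cell identity genes, 3 and 2 of the 4 genes of a mucosal position and 7 and 6 of the 9 other mast cell and granule genes were also higher than in the 9 types other than mast cells and basophils. The share of all genes highest in mast cells or basophils in this sense was not computed. The counts for these lists are therefore not read as particular to their genes. These 9 other genes summed to 73.5 and 75.2 UMIs per 10000 in basophils and to 34.2 and 38.1 in mast cells. The genes of a mucosal position summed to 20.1 and 12.3 against 11 and 13.6. In the mast cells sorted by protease type below, Srgn was the highest of the 9 genes, with means of 26.45 to 42.73. The sums of the 9 are therefore not read as a level of granule enzymes. Lyz2, whose locus carries the Cre in LysM-Cre mice, had 3892 and 1379 UMIs in macrophages (log2 ratio of -2.27 per UMI, interval -2.36 to -2.18) and 4 and 9 UMIs in mast cells. The feature named for the primary transcript of Mir34a had 133 and 462 UMIs in macrophages (log2 ratio of 1.03 per UMI, interval 0.74 to 1.31) and 3 and 6 in mast cells. In macrophages it was thus higher in the library labelled as the Mir34a deletion. Whether the deletion would lower the counts of this feature is not known here. A feature that joins Cre to Lyz2 by its name had 451 and 172 UMIs in macrophages (log2 ratio of -2.16 per UMI), lower in the library labelled as carrying Cre, and the Cre feature without Lyz2 had no UMI in macrophages, neutrophils, mast cells, basophils or T cells. The sequences behind these features are not given in the sources used here, so they did not settle the genotypes. Cell barcodes found in both libraries numbered 96, of which 4 were mast cells and 1 a basophil, and leaving them out moved no library ratio of the 10 genes in mast cells or basophils beyond its interval.

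Transcripts of the proteases Mcpt1 and Mcpt2 were among the most abundant in mast cells. Levels were scaled to 10000 UMIs in each cell and averaged over cells, and are given for Mir34a_F/F and then for Mir34a_Mye_KO. Since each UMI is 1 molecule read from its end, levels of different genes were compared without a correction for length. In mast cells, Mcpt1 reached 286 and 283 and Mcpt2 reached 207 and 234. By mean level, Mcpt1 ranked 1 and 2 among all genes of these cells, and Mcpt2 ranked 4 and 3. The connective tissue type transcripts were lower by about an order of magnitude: Mcpt4 was at 26.4 and 26.1, Tpsb2 at 23.5 and 30.3, and Cma1 at 14.5 and 19.2. Cpa3, which both types of mast cell express, was at 27.9 and 37.0. The other members were lower still, with Hdc at 7.003 and 6.31, Tpsab1 at 6.23 and 5.52, Mcpt9 at 3.31 and 3.17 and Mcpt8 at 1.24 and 0.604. Together the 10 genes accounted for 8.93% and 8.90% of all UMIs in mast cells.

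Means hid a wide spread between cells. For Mcpt1 the quartiles over mast cells were 13.1 and 491 UMIs per 10000 around a median of 116 in the library labelled Mir34a_F/F, and 18.8 and 476 around a median of 176 in the library labelled Mir34a_Mye_KO. For Cpa3 they were closer together, 6.38 and 38.2 around 21.1, and 15.2 and 49.8 around 31.2. Mcpt8 and Mcpt9 had a median of 0 in both libraries. After thinning each cell to 1000 UMIs, Mcpt1 was detected in 84.3% and 85.2% of mast cells, Cpa3 in 74.1% and 81.5%, Tpsb2 in 55.7% and 61.1%, Mcpt4 in 53.8% and 56.6%, Cma1 in 33.1% and 42.7%, Mcpt9 in 13.0% and 12.4% and Mcpt8 in 3.21% and 3.19%. In the 9 types other than mast cells and basophils, the thinned share was 15.6% to 37.0% and 15.3% to 46.7% for Mcpt1. It was at most 5.81% and 4.72% for Cpa3, 3.18% and 8.33% for Tpsb2, 3.49% and 10.0% for Mcpt4, 1.80% and 3.77% for Cma1, 0.901% and 0.943% for Mcpt9 and 1.85% and 0.232% for Mcpt8. The mast cell shares lay above these ranges for each of the 7 genes. Unthinned, the Mcpt1 share was 88.5% and 96.1%.

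**Figure D1:**
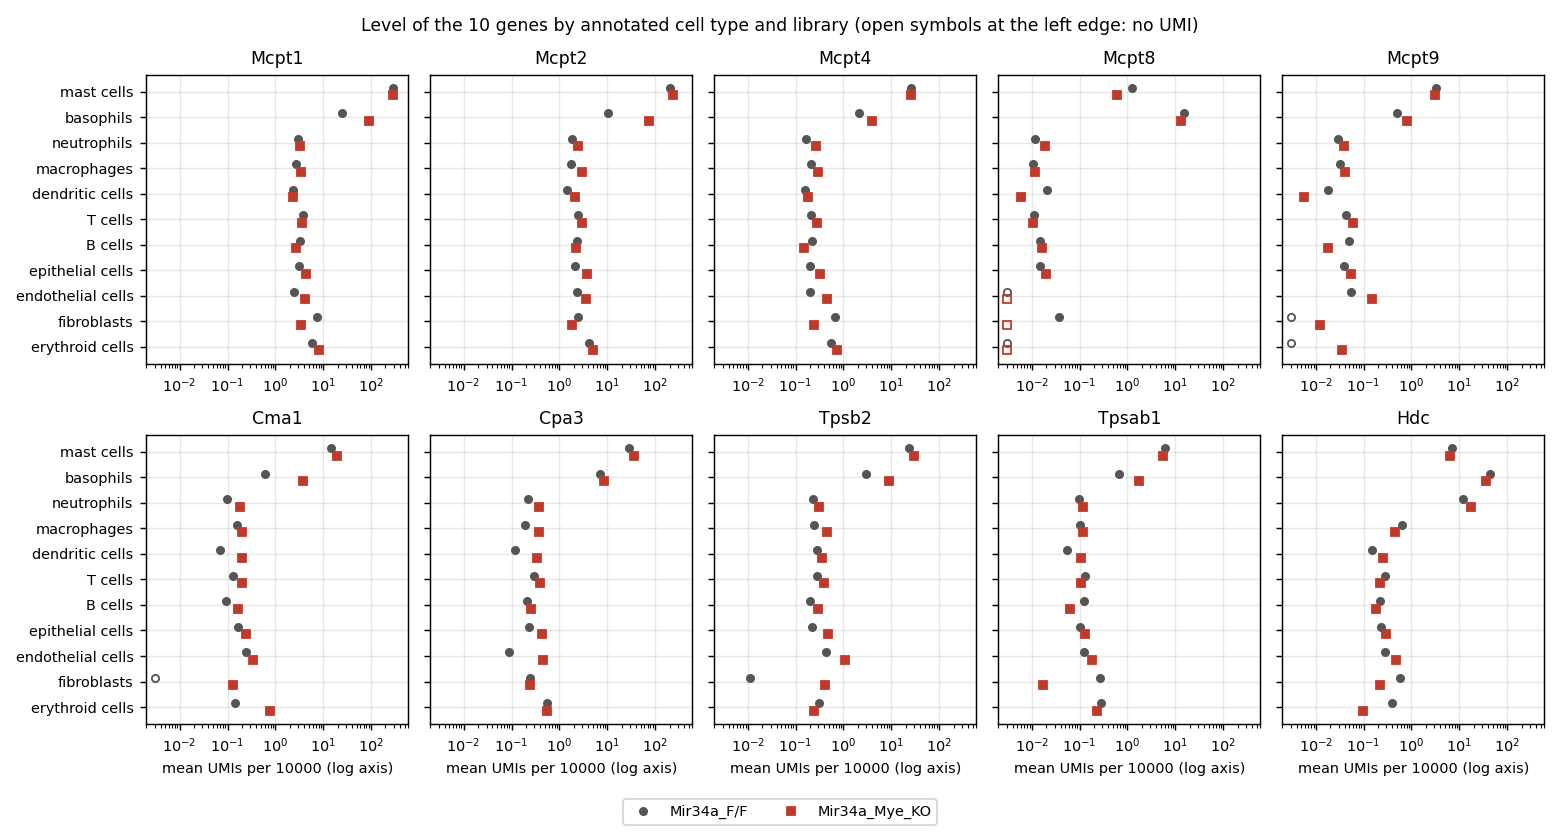
Mean UMIs per 10000 (log axis) of the 10 genes in each annotated cell type, for the libraries labelled Mir34a_F/F (circles) and Mir34a_Mye_KO (squares), 1 library per genotype. Mast cells were highest for 8 genes, and basophils were highest for Mcpt8 (15.5 and 13.3) and Hdc (43.6 and 35.7).

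Across the 11 cell types, 8 of the 10 genes had mast cells first and annotated basophils next in both libraries, while the order of the types below them differed between libraries. For these 8, mast cells stood 48.8 to 127 times above the median of the 8 cell types other than mast cells, basophils and neutrophils. In a comparison over all genes, 0.357% of 14272 genes were at least 10 times higher in mast cells than in every type other than basophils in both libraries, and 9 of the 10 members were among them, Hdc being the exception. The annotation was itself made from these cells, so this is a description and not a test. Of all UMIs of a gene in the library, mast cells held 62.1% to 83.4% (Mir34a_F/F) and 72.5% to 87.3% (Mir34a_Mye_KO) for the 8 genes other than Mcpt8 and Hdc.

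Protease transcripts were also counted in cells that should lack them. Mcpt1 had a UMI in 54.7% to 73.7% (Mir34a_F/F) and 72.9% to 88.3% (Mir34a_Mye_KO) of the cells of the 9 types other than mast cells and basophils, at means of 2.33 to 7.47 and 2.34 to 8.17 UMIs per 10000. T cells had a Mcpt1 UMI in 59.3% and 81.6% of cells at median depths of 3548 and 8043 UMIs, and epithelial cells in 62.9% and 82.2% at 5316 and 6623. These cells should lack the gene, so a UMI share at or below this level is taken as background and not read as expression. No measure of empty droplets was used here, and the source of these UMIs was not tested. In the 6 largest of the 9 types, the 2 mucosal chymases made up a share of the protease UMIs near that in mast cells, while less abundant members departed from it. Mcpt1 was 50.8% of the UMIs of Mcpt1, Mcpt2, Mcpt4, Cma1, Cpa3 and Tpsb2 in mast cells and 49.5% to 54.1% in those types (Mir34a_F/F), and 46.6% against 41.0% to 49.3% (Mir34a_Mye_KO). Mcpt2 was 38.4% against 33.3% to 37.8%, and 39.4% against 35.0% to 40.1%. The tryptase Tpsb2 was above its mast cell share in all 6 types of both libraries, at 2.60% in mast cells against 3.27% to 5.75%, and 3.51% against 4.03% to 7.55%. Cma1 was 1.81% in mast cells and 3.81% (3.62 to 4.002) in epithelial cells of the library labelled Mir34a_F/F, and Cpa3 was 4.52% in mast cells and 7.08% (6.07 to 8.20) in dendritic cells of the library labelled Mir34a_Mye_KO.

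**Figure D2:**
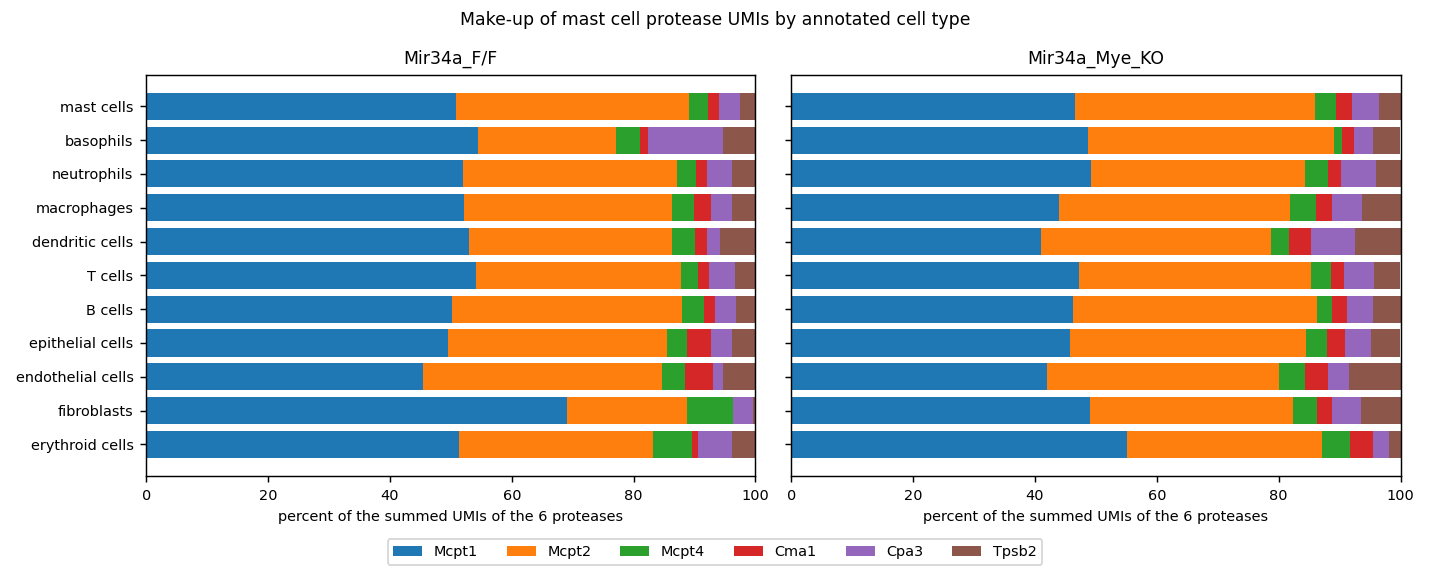
Share of each of 6 proteases in their summed UMIs (percent, stacked to 100) in every annotated cell type of both libraries. Mcpt1 and Mcpt2 make up most of the UMIs in every type, and in the library labelled Mir34a_F/F the basophils stand apart with Cpa3 at 12.2% and the fibroblasts, with 213 UMIs, with Mcpt1 at 69.0%.

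Between the genotypes, the mucosal chymase Mcpt1 differed little in mast cells, with a log2 ratio of means (Mir34a_Mye_KO over Mir34a_F/F) of -0.017, and so did Mcpt4 at -0.015 (interval -0.050 to 0.020). Mcpt2 was higher by 0.18 (0.17 to 0.19). Cma1 (0.41, 0.36 to 0.45), Cpa3 (0.41, 0.37 to 0.44) and Tpsb2 (0.37, 0.33 to 0.41) were the members with higher levels in the library labelled Mir34a_Mye_KO by more than this. Hdc was at -0.15 (-0.23 to -0.075), Tpsab1 at -0.18 (-0.26 to -0.093) and Mcpt9 at -0.064 (-0.15 to 0.020). The median over all genes was -0.13. None of the 10 reached a log2 ratio of 1, as 0.597% of 8881 genes did, and 1, Mcpt8 at -1.04 (-1.17 to -0.92), was at or below -1, as were 4.53% of genes. That value rested on few cells, since 50% of the Mcpt8 UMIs came from 4 mast cells in the library labelled Mir34a_F/F and 5 in the other, and without the 10 highest mast cells of each library the log2 ratio was -0.34. The sign for Mcpt1 turned with a stricter cell filter (0.043), that for Hdc turned after thinning (0.10), and that of Mcpt2 fell to 0.041 when UMIs were summed over cells.

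**Figure D3:**
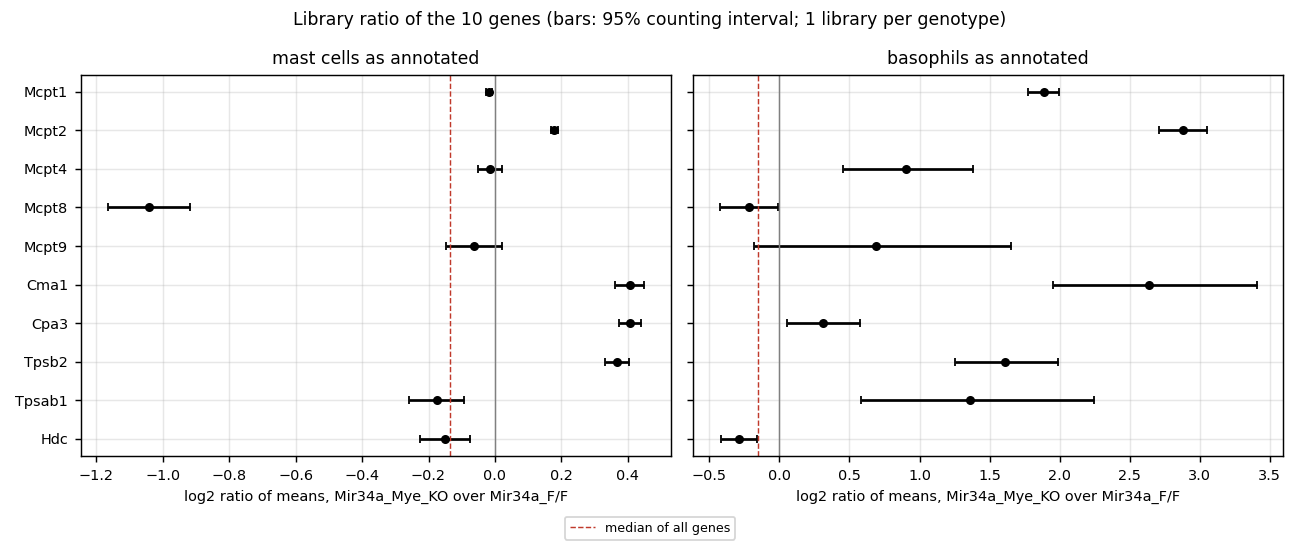
Log2 ratio of the mean level in the library labelled Mir34a_Mye_KO over that in the library labelled Mir34a_F/F for each of the 10 genes, in annotated mast cells (left) and basophils (right). Bars are 95% counting intervals of the summed UMIs, shifted to lie around the ratio of means. The dashed line is the median of all genes (-0.13 and -0.16), and in mast cells Cma1, Cpa3 and Tpsb2 lie at 0.37 to 0.41.

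The mucosal pattern dominated in both libraries. In mast cells the summed UMIs of Mcpt4, Cma1 and Tpsb2 were 0.0839 (0.0828 to 0.0851) of those of Mcpt1 and Mcpt2 in the library labelled Mir34a_F/F, and 0.110 (0.109 to 0.111) in the library labelled Mir34a_Mye_KO. On the log2 scale this was a library difference of 0.39 (0.37 to 0.42), which dropped to 0.21 after thinning to 1000 UMIs and to 0.16 for the ratio of means over cells. After thinning, 69.7% and 75.2% of mast cells had UMIs of both sums, compared with 2.96% and 4.09% of T cells. Mucosal type UMIs alone were found in 22.3% and 18.4% of mast cells and in 33.9% and 33.6% of T cells, and connective tissue type UMIs alone in 3.64% and 3.58% of mast cells and in 2.36% and 3.03% of T cells. Background UMIs can place a cell in any of these classes, so the shares with 1 kind alone are not read as kinds of cell.

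Single cells spanned the range between the patterns. In cells with at least 20 UMIs of the 5 genes (511 and 650 cells), the connective tissue type share had a median of 8.57% and 10.5%, with quartiles of 3.67% and 19.1%, and of 4.77% and 23.2%. The share was under 10% in 289 and 311 cells, from 10% to 50% in 161 and 257 cells, and over 50% in 61 and 82 cells, which was 11.9% (9.26 to 15.1) and 12.6% (10.2 to 15.4) of the cells. The bounds were chosen after the values were seen and do not separate kinds of cell, since 7 and 28 cells lay between 45% and 55%, and 82 and 97 cells between 8% and 12%. By construction the genes of the share differed between its ends, with Mcpt1 at 569 and 504 UMIs per 10000 under 10% and at 16.3 and 12.9 over 50%, while Mcpt2 kept 55.7 and 57.8 over 50% (396 and 383 under 10%). Depth differed between the ranges, with a median of 5640 and 12950 UMIs per cell under 10% and of 2963 and 7198 over 50%, and its part in what follows was not tested.

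**Figure D4:**
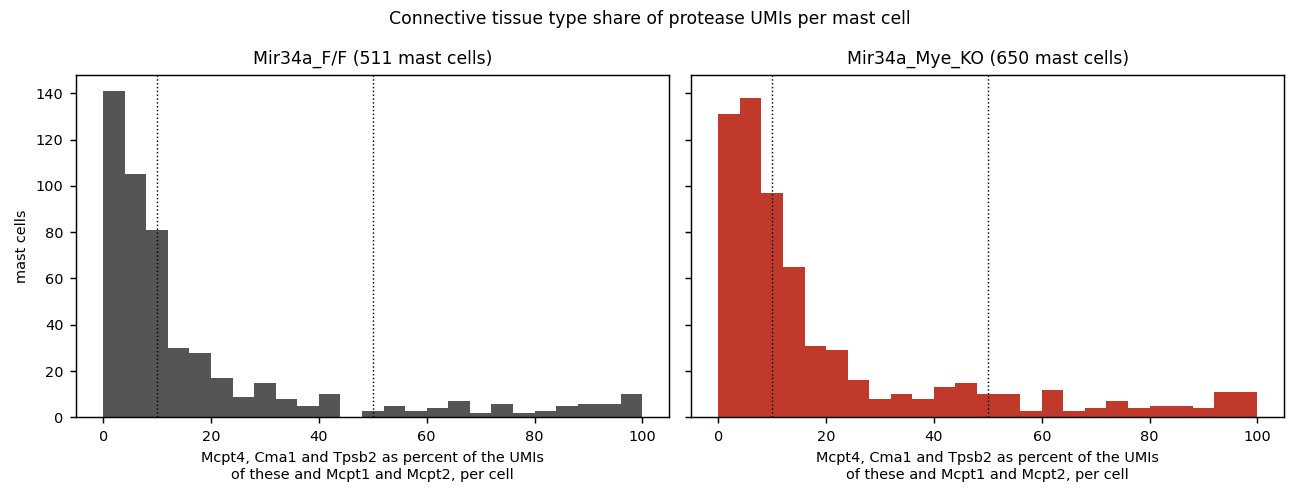
Number of mast cells by the share of Mcpt4, Cma1 and Tpsb2 in the UMIs of these and Mcpt1 and Mcpt2, in bins of the percent share, for the libraries labelled Mir34a_F/F (511 cells) and Mir34a_Mye_KO (650 cells). Most cells lie below 20%, with a long tail that reaches 100%, and the dotted lines mark 10% and 50%.

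Of the other 5 members, which the share did not use, 4 differed between the 2 ends of this range in the same direction in both libraries. Hdc was at 4.06 and 4.03 UMIs per 10000 in cells under 10% and at 19.2 and 13.2 in cells over 50%, a log2 difference of 2.24 (2.07 to 2.41) and 1.71 (1.60 to 1.83). Cpa3 was at 27.4 and 34.6 under 10% and at 77.9 and 75.9 over 50%. Tpsab1 was at 5.40 and 3.63 under 10% and at 9.67 and 9.37 over 50%. These 3 were higher at the connective tissue end. Mcpt9, in contrast, was at 7.07 and 6.50 under 10%, from 1538 and 3183 UMIs, and had 1 UMI in each library over 50%, so that it followed the mucosal end. Cma2, which shares stretches with Mcpt9, was at 2.495 and 3.55 under 10% and at 0.346 and 0.2975 over 50%. Reads of the 2 genes may not be told apart. Of all genes outside the 5, 3.34% were higher and 2.41% lower at the connective tissue end in both libraries. Mcpt8 had no common direction, with 1.91 and 0.583 under 10% and 2.82 and 0.0897 over 50%.

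Some other genes known from the 2 types of mast cell differed as well. Mrgprb2, the receptor through which basic peptides activate connective tissue mast cells, was at 0.170 and 0.0866 UMIs per 10000 under 10% and at 3.41 and 2.28 over 50%, and its relative Mrgprb1 at 0.146 and 0.0473 under 10% and at 3.47 and 3.91 over 50%. Itgae, the integrin chain that binds epithelial E-cadherin, was at 2.36 and 3.03 under 10% and at 0.0508 and 0.0278 over 50%. Tph1, the first enzyme of serotonin synthesis, was at 8.25 and 7.41 under 10% and at 2.85 and 2.95 over 50%. Among the 4 genes fixed as signs of a mucosal position, Itgb7 was at 0.906 and 1.31 under 10% and at 0.9501 and 1.87 over 50%, and Gzmb was higher over 50% (7.39 and 7.89) than under 10% (3.26 and 3.41), so this list did not move as one. Fcer1a, a chain of the IgE receptor, was at 7.05 and 8.88 under 10% and at 16.4 and 14.1 over 50%, while Kit changed less, from 7.83 and 7.42 to 10.8 and 10.0. Of the 40 genes outside the 5 with a ratio in both libraries, the interval lay above 0 over 50% against under 10% in both libraries for 15 and below 0 for 5. Over all 10972 genes with such a ratio these were the 3.34% and 2.41% given above. Among the 8593 of them with a mean of at least 0.1 in mast cells they were 4.08% and 3.06%. The listed genes were chosen as mast cell and basophil genes, and nothing is read as particular to them. Prss34, a basophil protease, was among the 15, at 0.0266 and 0.0236 under 10% and at 0.815 and 0.326 over 50%. Of the markers of other cells, S100a8 was at 3.29 and 1.37 under 10% and at 1.45 and 4.74 over 50%, and Epcam at 3.32 and 2.20 under 10% and at 2.76 and 2.63 over 50%, and their part in these differences was not tested.

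**Figure D5:**
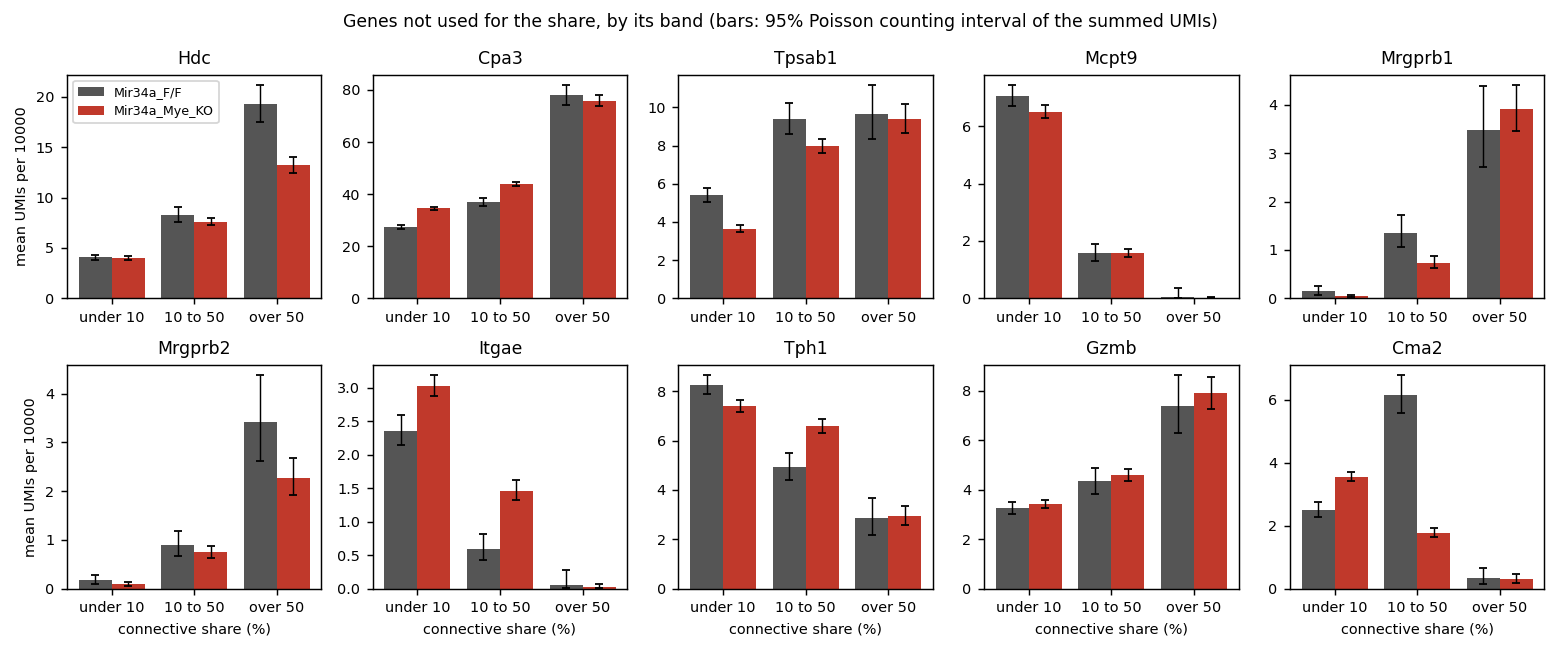
Mean UMIs per 10000 (bars start at 0, error bars are 95% Poisson counting intervals) of 10 genes not used for the connective tissue type share, in mast cells with a share under 10%, from 10% to 50% and over 50%, for both libraries. Hdc, Cpa3, Mrgprb1, Mrgprb2 and Gzmb are highest over 50%, and Mcpt9, Itgae and Tph1 are highest under 10%.

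Across mast cells, correlations ran within the types and, for Mcpt2 more than for Mcpt1, also between them. As a description over cells of 1 library that differ in depth, the Pearson correlation of log levels was 0.73 and 0.74 between Mcpt1 and Mcpt2, and 0.63 and 0.66 between Tpsb2 and Cma1. Mcpt2 also went with members of the other type, at 0.47 and 0.36 with Tpsb2 and 0.40 and 0.42 with Cma1, close to the 0.50 and 0.48 between Mcpt4 and Cma1. Mcpt1 did so less, at 0.19 and 0.071 with Tpsb2 and 0.098 and 0.080 with Cma1. Cpa3 correlated with both types, at 0.55 and 0.57 with Mcpt2 and at 0.59 and 0.55 with Mcpt4. The values with Mcpt4 exceeded those of Mcpt4 with Cma1 or Tpsb2 (0.53 and 0.44). Tpsb2 and its neighbour Tpsab1 were at 0.60 and 0.67, whereas Mcpt1 and Tpsab1 were at 0.057 and -0.041. Mcpt1 also correlated with the UMI total of the cell (0.51 and 0.52), as did Mcpt2 (0.567 and 0.605) and Cpa3 (0.38 and 0.47). The part of depth in the correlations between genes was not tested. Genes were ranked by the lower of their correlations in the 2 libraries. Among 4818 genes, those that went most with the sum of Mcpt1 and Mcpt2 were Cd63, a granule membrane protein (0.64 and 0.67), Fcer1g, Cd52, Sh3bgrl3 and Alox5ap. With the sum of Mcpt4, Cma1 and Tpsb2 they were Cpa3 (0.70 and 0.68), Fcer1a (0.59 and 0.67), Rpl10, Rpl9 and Tyrobp. The mucosal chymase Mcpt2 was close behind, at 0.57 and 0.50, while Mcpt1 was at 0.315 and 0.241.

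Over the 22 profiles of cell type and library, which share libraries and background UMIs, the gene most like Mcpt1 was Mcpt4 (Pearson r of 0.990), followed by Mcpt2 (0.985) and Pde1c (0.980). Over these profiles Mcpt4, of the connective tissue type, was thus nearer to Mcpt1 than to Cma1 (0.842) or Tpsb2 (0.838). Across single mast cells the order was the reverse. There Mcpt4 was at 0.30 and 0.24 with Mcpt1, against 0.50 and 0.48 with Cma1 and 0.53 and 0.44 with Tpsb2. Cma1 was most like Tpsb2 (0.955), Tph1 (0.930) and Rab27b (0.919), and Tpsb2 most like Cma1, Mcpt9 (0.933) and Gm16159 (0.916). Mcpt2 was nearest to Mcpt1, Mcpt4 (0.974) and Tph1 (0.970). Mcpt9 was nearest to Tpsb2, Hs6st2 (0.921) and Tph1 (0.911), Cpa3 to Mcpt1 (0.968), Car8 (0.967) and Mcpt2 (0.962), and Tpsab1 to Mcpt4 (0.963), Mcpt1 (0.960) and Mcpt2 (0.957). Mcpt8 and Hdc stood apart from the others: Mcpt8 was most like Prss34, another basophil protease (0.967), Ctsg (0.960) and Gm35147 (0.941), and Hdc was most like Rab44 (0.951), Nfkbiz (0.920) and Lilr4b (0.911).

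Mcpt8 was highest in annotated basophils, at 15.5 and 13.3 UMIs per 10000, which was 12.5 and 22.1 times its level in mast cells by means over cells. The difference was smaller with UMIs summed over cells. Basophils then had 331 of 195215 and 457 of 449806 UMIs, and mast cells 1160 of 3257391 and 971 of 8789287. These means rested on few cells, since 2 basophils in each library held 50% of the Mcpt8 UMIs, the 10 highest held 87.9% and 95.6%, and the median over basophils was 2.44 and 0. Of the basophils, 25 of 48 and 17 of 40 had a Mcpt8 UMI. In the other 9 types its level was at most 0.0375 (Mir34a_F/F) and 0.0196 (Mir34a_Mye_KO). The basophils with a Mcpt8 UMI had Hdc at 62.1 and 59.7, S100a8, a neutrophil gene, at a mean of 2.43 and 15.2 (median 2.57 and 1.30) and Mcpt1 at a mean of 2.42 and 60.5 (median 2.51 and 2.79). The 23 basophils of each library without one had Hdc at 23.5 and 17.9, S100a8 at a mean of 380 and 269 (median 184 and 205) and Mcpt1 at a mean of 49.3 and 115 (median 13.8 and 89.9). This division was made after the values were seen, by 1 of the members.

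In mast cells most Mcpt8 UMIs lay in few cells. A UMI was found in 8.61% and 13.1% of mast cells and in at most 1.75% and 1.02% of the cells of the 9 types other than mast cells and basophils, and the 10 highest cells held 81.3% and 67.3% of the UMIs. The mast cells with at least 5 Mcpt8 UMIs, a bound also chosen after the values were seen, numbered 22 and 30 of the 63 and 103 with a UMI. They held 1086 and 858 of the 1160 and 971 Mcpt8 UMIs. Their Mcpt8, high by the choice of the bound, was at 36.6 and 12.1 UMIs per 10000, and all of them had a Kit UMI. Their Mcpt1 was at 620 and 553 and their Cpa3 at 37.95 and 42.3, whereas Prss34 was at 0.0743 and 0.122. Their median depth was 13702 and 27080 UMIs, above the 2769 and 7678 of mast cells without Mcpt8, and whether they hold more than 1 cell was not tested.

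In the annotated basophils, 5 of the 10 genes were at a log2 library ratio of at least 1, where 16.3% of 8847 genes were, and none was at or below -1, where 23.9% were. Mcpt1 was at 24.9 and 92.0 UMIs per 10000 and Mcpt2 at 10.2 and 75.1, Cma1 at 0.607 and 3.77, Tpsb2 at 2.93 and 8.93, and Tpsab1 at 0.670 and 1.72. The UMIs behind these means lay in few cells: the highest cell held 34.3% and 44.5% of the Mcpt1 UMIs, and the median over basophils was 3.95 and 4.29. The share of basophils with a Mcpt1 UMI, 70.8% and 82.5%, lay within the range of the 9 types taken as background. Basophils with a Kit UMI, 14 and 17 in number, had Mcpt1 at 74.0 and 199, and those without at 4.66 and 12.7. Without the cells that had a Kit UMI, the log2 ratio of Tpsab1 turned from 1.36 to -0.68 and that of Cpa3 from 0.31 to -0.51. Mcpt8 was at -0.22 (-0.42 to -0.0090) in all basophils, at 0.42 without the cells with Kit and at 0.077 in the cells with Mcpt8.

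Hdc was the member whose level in neutrophils exceeded that in mast cells. Basophils were highest, at 43.6 and 35.7 UMIs per 10000, with a UMI in 48 of 48 and 97.5% of cells. Neutrophils followed at 12.01 and 17.2, above mast cells at 7.003 and 6.31, and this order was the same in both libraries. After thinning, 59.4% and 70.7% of neutrophils and 31.1% and 29.5% of mast cells had an Hdc UMI. Neutrophils held 51.7% and 59.8% of all Hdc UMIs, and mast cells 16.8% and 19.8%. Per 100 Mcpt1 UMIs, Hdc had 1.35 and 1.44 UMIs in mast cells, 8.08 and 5.71 in T cells, 7.94 and 6.78 in epithelial cells, 20.9 and 20.2 in macrophages and 545 and 572 in neutrophils, so neutrophil Hdc did not follow the ratio of the protease transcripts. In neutrophils its log2 library ratio was 0.51 (0.47 to 0.56), which was below 1, the size reached by 0.753% of 8096 genes, while 2.06% were at or below -1. The median over all genes in neutrophils was -0.15. The other 9 members were at background levels there, with means of at most 2.91 and 3.33 UMIs per 10000, and their ratios also lay above 0 (median of all 10 of 0.48), from as few as 7 and 11 UMIs for Mcpt8. The intervals of Mcpt8, Mcpt9 and Tpsab1 crossed 0. The share of all genes with a ratio above 0 in neutrophils was not computed. In mast cells and basophils the ratio of Hdc was -0.15 and -0.29 (-0.42 to -0.16).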

How the data were processed

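Single-cell RNA-seq of pooled tumors was analysed, with 1 library per genotype. Per the labels and the study's methods, the authors counted reads with Cell Ranger 7.2.0 on mm10, removed doublets with Scrublet, and deposited log-normalized values (natural log of 1 plus UMIs per 10000 of a cell) with an annotation of 11 cell types. No doublet caller was run again. The values were turned back into whole UMIs (32291 genes, 38883 cells, 96847573 values, largest deviation 1.5e-10). Levels are means over cells of UMIs per 10000. Library ratios, and log2 differences between ranges of the connective tissue type share, are log2 ratios of means. Their intervals take the width of the exact binomial interval of the ratio of summed UMIs, shifted to lie around the ratio of means. They can therefore leave out the ratio of summed UMIs itself. Shares have exact binomial and sums exact Poisson 95% intervals, which cover counting error only. All cells were used, and libraries were thinned to 1000 UMIs per cell (seed 1) where shares were compared. Free RNA in droplets can add transcripts of abundant genes to any cell. The deeper library shows more genes per cell.

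The members, lists and tests were chosen with earlier results of these data known. Named genes are the 10 members, 58 genes fixed as cell type markers, the 3 most similar genes over 22 profiles and the 5 highest correlations in mast cells. The share of all genes past a log2 ratio of 1 was taken over genes with a mean of at least 0.1. Alternatives were summed UMIs, thinning, a stricter cell filter (500 genes and under 10% mitochondrial UMIs), subtraction of the T cell level, other totals, a pseudocount of 1 and annotation with marker UMIs. The functions were tested on simulated counts. Python 3.11.15, SciPy 1.17.1 and Biopython 1.88 were used. Protein sequences were not used here.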

Additional observations from a re-analysis of the deposited data

Results flagged for a closer look

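For 3 of the 10 genes the library ratio, with intervals off 0, had opposite signs in 2 of the cell types where the gene was highest. The share of all genes that meet this rule was not computed, so it is not read as particular to these genes. In basophils 16.3% of all genes were at a log2 ratio of at least 1 and 23.9% at or below -1. The difference between cell types was not tested, since each genotype had 1 library. The median over all genes was -0.13 in mast cells and -0.16 in basophils, so Mcpt1 in mast cells lay above the median while Tpsab1 and Hdc there lay near it. The log2 ratio of Mcpt1 was -0.017 in mast cells and 1.89 in annotated basophils, a difference of 1.90. In basophils the highest cell held 34.3% and 44.5% of the Mcpt1 UMIs, and the median was 3.95 and 4.29 UMIs per 10000. A Mcpt1 UMI was in 70.8% and 82.5% of basophils, within the range of the 9 types taken as background. That of Tpsab1 was -0.18 in mast cells and 1.36 in basophils, a difference of 1.54, on 15 and 124 UMIs in basophils. The ratio of Hdc in neutrophils exceeded that in mast cells by 0.66 and that in basophils by 0.80. In neutrophils the median over all genes was -0.15, and the other 9 members, at background levels there, also had ratios above 0. The intervals of Mcpt8, Mcpt9 and Tpsab1 among them crossed 0. In each of the 3 an opposite sign was lost under an alternative: Mcpt1 in mast cells turned to 0.043 with the stricter cell filter, Hdc in mast cells turned to 0.10 after thinning, and Tpsab1 in basophils turned to -0.68 without the cells with a Kit UMI, an alternative chosen after seeing the data. The ratio of Hdc in basophils stayed below 0 under the 10 alternatives tried, with values from -0.44 to -0.057.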

How the results depend on the processing

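In mast cells the log2 library ratios of Cma1, Cpa3, Tpsb2, Mcpt2, Mcpt8 and Tpsab1 kept their sign under all 9 alternatives tried, with ranges of 0.38 to 0.54, 0.30 to 0.49, 0.33 to 0.45, 0.041 to 0.24, -1.69 to -0.34 and -0.18 to -0.11. Of 90 values in mast cells, 52 lay inside the interval of the reported value. The cause of the others was not tested. With UMIs summed over cells the ratio was -0.12 for Mcpt1, 0.041 for Mcpt2, 0.13 for Mcpt4, -1.69 for Mcpt8, -0.29 for Mcpt9, 0.52 for Cma1, 0.44 for Tpsb2, -0.026 for Hdc and 0.59 for Hdc in neutrophils. Thinned to 1000 UMIs it was -0.097 for Mcpt1, 0.10 for Mcpt2, -0.050 for Mcpt4, -0.17 for Mcpt9, 0.30 for Cpa3 and 0.10, a reversal, for Hdc. With the stricter cell filter it was 0.043, a reversal, for Mcpt1, 0.24 for Mcpt2, 0.10 for Mcpt4, -0.92 for Mcpt8, 0.030 for Mcpt9, 0.50 for Cma1, 0.49 for Cpa3 and 0.45 for Tpsb2. Totals without mitochondrial and immunoglobulin UMIs raised all 10 ratios by 0.027 to 0.048, which follows from the scaling, and it was then 0.016, across 0, for Mcpt1, 0.21 for Mcpt2, 0.024 for Mcpt4, 0.45 for Cpa3, 0.41 for Tpsb2 and 0.56 for Hdc in neutrophils. In mast cells with a Kit UMI it was -0.091 for Mcpt1, 0.096 for Mcpt2, -1.31 for Mcpt8 and -0.23 for Mcpt9. With a pseudocount of 1 Mcpt8 was at -0.48. Subtracting the T cell level, or leaving out barcodes found in both libraries (chosen after seeing the data), kept every mast cell ratio inside its interval. In an alternative chosen after seeing the data, without the 10 highest mast cells, it was 0.20 for Mcpt2, -0.34 for Mcpt8, 0.067 for Mcpt9, 0.54 for Cma1, 0.42 for Tpsb2 and -0.073 for Hdc. The log2 ratio of connective tissue type over mucosal type UMIs (-3.58 and -3.18 as reported) was -2.97 and -2.76 after thinning, -3.62 and -3.20 with the stricter filter, -3.62 in the library labelled Mir34a_F/F with a Kit UMI required, and -2.94 and -2.77 as a ratio of means over cells, also chosen after seeing the data. Its library difference was 0.21 after thinning, 0.44 with a Kit UMI required and 0.16 for the ratio of means.

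In basophils, in alternatives chosen after seeing the data, the ratio of Mcpt8 reversed to 0.42 and those of Cpa3 and Tpsab1 to -0.51 and -0.68 without cells with a Kit UMI, and that of Mcpt8 to 0.077 in cells with a Mcpt8 UMI. For the ratios of mast cells over basophils, 66 values under the alternatives lay inside the interval of the reported value and 54 outside it, none with a reversed sign. Leaving out a replicate was not possible with 1 library per genotype. No paired analysis was possible because each genotype had 1 library and no test was run.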
